A study of Arabidopsis thaliana with 6 samples.

Results

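Late embryogenesis abundant (LEA) proteins outside the dehydrin family were followed in fresh Arabidopsis thaliana seeds. The members are 41 genes named one by one by locus, which make up the other families of the published LEA classification, out of 32833 genes in the deposited table. All 41 had a row. The study compared RNA-seq of fresh seeds of wild-type Columbia-0 (Col-0, 3 libraries) with fresh seeds of the asf1a1b mutant (3 libraries), which is mutated in both genes of the histone chaperone ASF1, ASF1A and ASF1B. Plants of both genotypes grew on soil in long days at about 21 °C, and seeds were fresh, with a harvest time of within 24 hours in the labels. The labels also speak of stratification for 4 days at 4 °C, and do not settle whether the sequenced seeds had been stratified. They do not say how the mutant was made, or whether replicates are from different plants, so p-values reflect the spread of these samples alone and that spread may be technical.

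LEA proteins are mostly small, very hydrophilic proteins that accumulate in the embryo late in seed maturation, when the seed dries. Many are unordered in water and fold on drying, and they are thought to shield membranes and other proteins from damage in the dry state. Their genes are classic targets of abscisic acid and of the seed transcription factors ABI3 and ABI5. Fresh seeds are the tissue where such transcripts are stored.

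The values are TPM (relative transcript abundance corrected for gene length) that had been rescaled between libraries, and are called rescaled TPM. The libraries held 42771684 to 56016726 reads, as recovered from these values. Markers of the mature embryo (OLEO1, CRA1, CRU3 and PER1, which encode oil body, storage and antioxidant proteins) were all abundant, with a summed level of 42006 to 80062 in Col-0 and 54533 to 70034 in asf1a1b, and 0 of the 4 passed the threshold. Pollen markers (4 genes, 1 of 4 tested rose) summed to 8.43 to 24.4 and 6.28 to 17.1, and the endosperm marker EPR1 measured 6904 to 10323 and 9229 to 11131. Of all genes tested, 16.1% passed as higher and 14.5% as lower in asf1a1b (limma adjusted p under 0.05). Leaf markers (5 genes, 2 of 3 tested rose, 0 listed at 0 throughout) summed to 10.4 to 23.7 in Col-0 and 52.6 to 107 in asf1a1b. Most of this sum was RBCS1A (means of 16.8 and 71.0). Seed coat markers (4 genes, 2 of 3 tested rose) summed to 118 to 136 and 179 to 229, mostly from SBT1.7 (means of 119 and 199). The part of these differences in the results on LEA genes was not tested. ASF1A and ASF1B were lower in the mutant, with log2 fold changes of -2.41 ± 0.12 and -1.62 ± 0.22 (SE, limma adjusted p = 0.00022 and 0.00276).

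LEA transcripts were a large share of the summed rescaled TPM, and a smaller one in the mutant. The 41 genes together held 11.3%, 11.1% and 10.2% of the library total in wild-type replicates 1 to 3, and 9.32%, 7.01% and 7.72% in mutant replicates 1 to 3. The groups did not overlap. The summed level averaged 108679 ± 9663 (Col-0) and 80981 ± 16778 (asf1a1b) rescaled TPM (SD, n = 3), giving a ratio of 0.745. On this level the groups nearly touched, at 98704 in Col-0 replicate 3 and 97720 in asf1a1b replicate 1. No test was made of the summed level, since the members were chosen with earlier results known. As these are whole seeds, fewer cells of a type and less of the RNA per cell cannot be told apart. The 5 highest members held 52.9% to 61.2% of the sum in Col-0 and 46.3% to 49.5% in asf1a1b. The largest decreases in mean level were in M17 (16756 to 7391), EM6 (21258 to 13345) and AT3G15670 (13148 to 8460). None of these genes passed the threshold on its own. Of the 31 tested members, 10 had a higher mean log2 level in asf1a1b.

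Of the 41 genes, 31 averaged 1 or more across the 6 libraries and were tested (limma on log2(value + 1), Benjamini-Hochberg adjustment over 14663 genes, threshold 0.05). In asf1a1b 4 rose, 2 fell and 25 did not pass. Of all genes tested 30.6% passed, 16.1% higher and 14.5% lower in asf1a1b. In this fit the members' share of 19.4% was below that background. Without asf1a1b replicate 1 the count was 12 of the 31 (5 higher and 7 lower). This share was near the 34.2% of all genes, so that count is no result about the members. The 6 genes called with all libraries were among the 12. The lower share in the main fit thus depended on the libraries used. The 6 that passed were AT3G02480, LEA26, LEA27 and SAG21, which rose, and the neighbours AT5G53260 and AT5G53270, which fell. None of the 6 had a Col-0 mean above 487, while 19 of the 25 that did not pass had a Col-0 mean of at least 1000. How often all genes of that Col-0 level passed was not computed. The median log2 fold change of the 31 was -0.26, against 0.01 over all genes. Leaving out Col-0 replicate 1 gave -0.01, and leaving out mutant replicates 1, 2 and 3 in turn gave -0.49, -0.07 and -0.17.

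**Figure D1:**
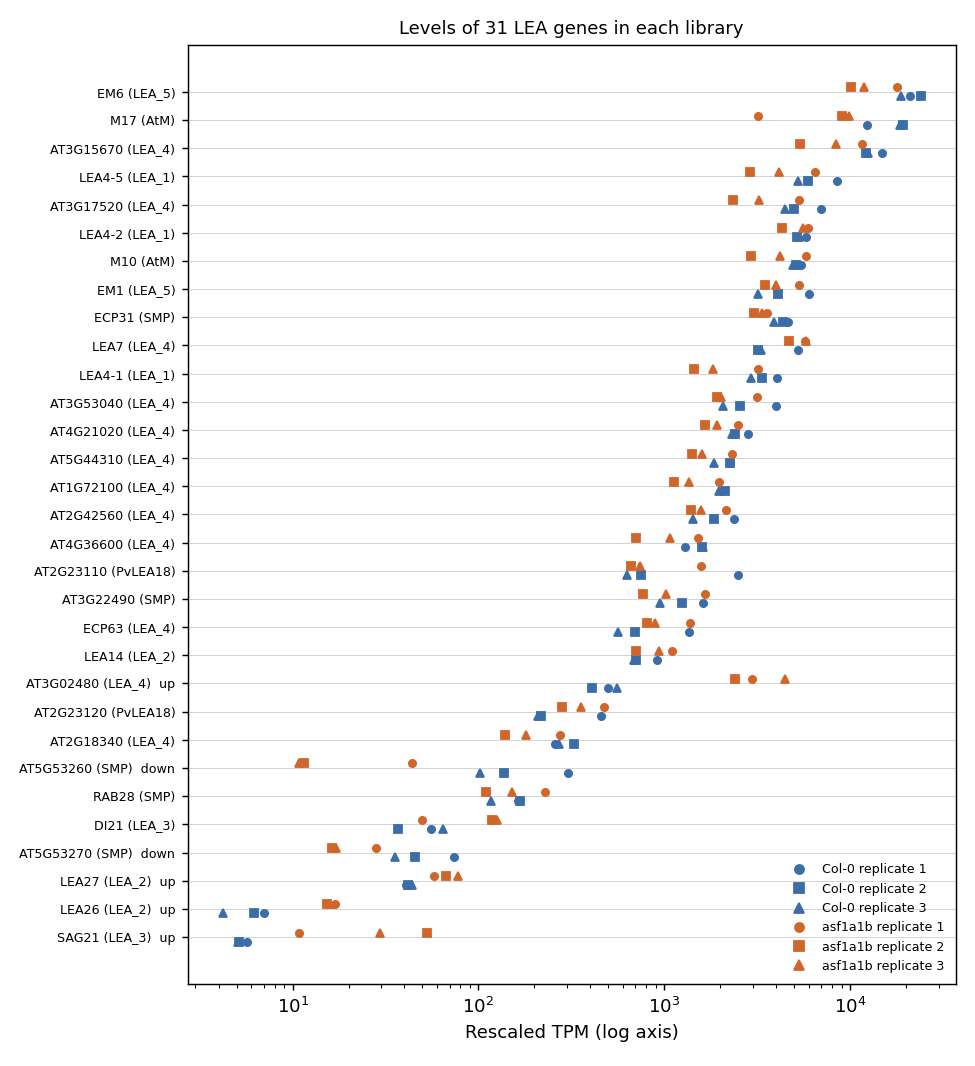
Level of the 31 tested LEA genes in each library, ordered by the Col-0 mean, in rescaled TPM on a log axis. Symbols mark replicates and colours genotypes, and the family stands in brackets. The 3 highest genes, EM6, M17 and AT3G15670, lie among the 20 highest of all genes in Col-0, and none of the 6 genes past the threshold has a Col-0 mean above 487.

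AT3G02480, a small protein of the LEA_4 family known as ABR in work on dark-induced leaf senescence, changed most among the genes that rose. Its level was 499, 408 and 555 rescaled TPM in the wild type and 2985, 2416 and 4456 in the mutant, in the order of replicates 1, 2 and 3 as throughout. Each mutant library was well above each wild-type library. The mean was 6.74 times higher, a log2 fold change of 2.71 ± 0.25 (SE, 95% interval 2.12 to 3.31, limma adjusted p = 0.0012), and from 5.54 to 7.63 times when 1 library was left out. The gene lies on chromosome 3, at 512220 to 513036 (TAIR10.1, as for all positions here, plus strand), with 3 exons and 68 codons for amino acids. In Col-0 its level placed it at rank 179 of all genes, and in the other 11 tested LEA_4 genes the change was between -0.70 and 0.50 on the log2 scale with no call.

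The LEA_2 family, whose proteins are less hydrophilic than other LEA proteins and fold stably, had 2 of its 3 genes higher in the mutant. LEA26 (AT2G44060, chromosome 2, 18226263 to 18228293, plus strand, 3 exons) measured 7.03, 6.22 and 4.22 (Col-0) and 16.9, 15.4 and 15.9 (asf1a1b) rescaled TPM. LEA27 (AT2G46140, chromosome 2, 18958999 to 18960645, plus strand, 2 exons) had 40.8, 42.0 and 43.7 in Col-0 and 57.8, 66.7 and 78.1 in asf1a1b. Both genes separated the genotypes without overlap, as did 10 of the 31 members and 47.5% of all genes tested. Their log2 fold changes were 1.34 ± 0.17 and 0.66 ± 0.13 (SE, limma adjusted p = 0.00242 and 0.0101), and both kept the call in each fit that left out 1 library. The third gene, LEA14 (AT1G01470), which responds to light stress, was far more abundant and its groups overlapped. It had 920.3, 705 and 692 in Col-0 and 1103, 706 and 940.1 in asf1a1b (log2 fold change 0.23, 95% interval -0.26 to 0.73).

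SAG21 (AT4G02380, chromosome 4, 1046042 to 1047105, minus strand, 2 exons), a mitochondrial LEA_3 protein induced by senescence and oxidative stress, rose with a wide spread. It had 5.65, 5.12 and 5.10 rescaled TPM in Col-0, within a narrow range, and 10.9, 53.1 and 29.4 in asf1a1b. The log2 fold change was 2.10 ± 0.47 (SE, limma adjusted p = 0.0155). Leaving out Col-0 replicate 2, or asf1a1b replicate 3, took the call away (limma adjusted p = 0.0545 and 0.0673), and the ratio of means went from 5.89 to 3.81 without asf1a1b replicate 2. Its annotated span overlaps AT4G04125 on the same strand by 180 bases, so reads there cannot be told apart. DI21 (AT4G15910), a drought-induced gene of the same family, had 55.3, 37.1 and 64.7 in Col-0 and 49.99, 119 and 126 in asf1a1b. Replicates 2 and 3 of the mutant were above all of Col-0 and replicate 1 was not (log2 fold change 0.82, limma adjusted p = 0.124, and 0.00887 without asf1a1b replicate 1).

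The decreases were in a tandem pair of seed maturation protein (SMP) genes. AT5G53260 (chromosome 5, 21604662 to 21605674, minus strand, 2 exons) measured 304, 137 and 102 (Col-0) and 44.0, 11.5 and 10.9 (asf1a1b) rescaled TPM. AT5G53270 (chromosome 5, 21606271 to 21607297, minus strand, 2 exons) had 74.2, 45.3 and 35.5 in Col-0 and 28.3, 16.3 and 17.2 in asf1a1b. For both, replicate 1 was the highest library of its genotype, and the groups did not overlap. AT5G53260 fell by 3.11 ± 0.58 on the log2 scale and AT5G53270 fell by 1.26 ± 0.30 (SE, limma adjusted p = 0.00791 and 0.0183). The ratio of means for AT5G53260, 8.18 times lower, was 16.2 without asf1a1b replicate 1 and 5.405 without Col-0 replicate 1. AT5G53270 was 2.51 times lower, and leaving out wild-type replicate 2, mutant replicate 2 or mutant replicate 3 took its call away (limma adjusted p = 0.0531, 0.0701 and 0.0797).

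These neighbours lie 596 bases apart with 0 annotated genes between them. Of the exonic 50-base words of AT5G53260, 14.3% also occur elsewhere in the nuclear genome, mainly in AT5G53270, and 8.01% of those of AT5G53270 do, so some reads could be split between the copies. Of the other members only UNE15 had any such word (3.62%). The next gene on 1 side, AT5G53280, had means of 55.4 and 54.4 in Col-0 and asf1a1b (log2 fold change -0.02, 95% interval -0.42 to 0.38), and AT5G53250 on the other side was near 0 in both (0.0933 and 0.0767). These neighbours were looked at after the values of the tandem genes were known.

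**Figure D2:**
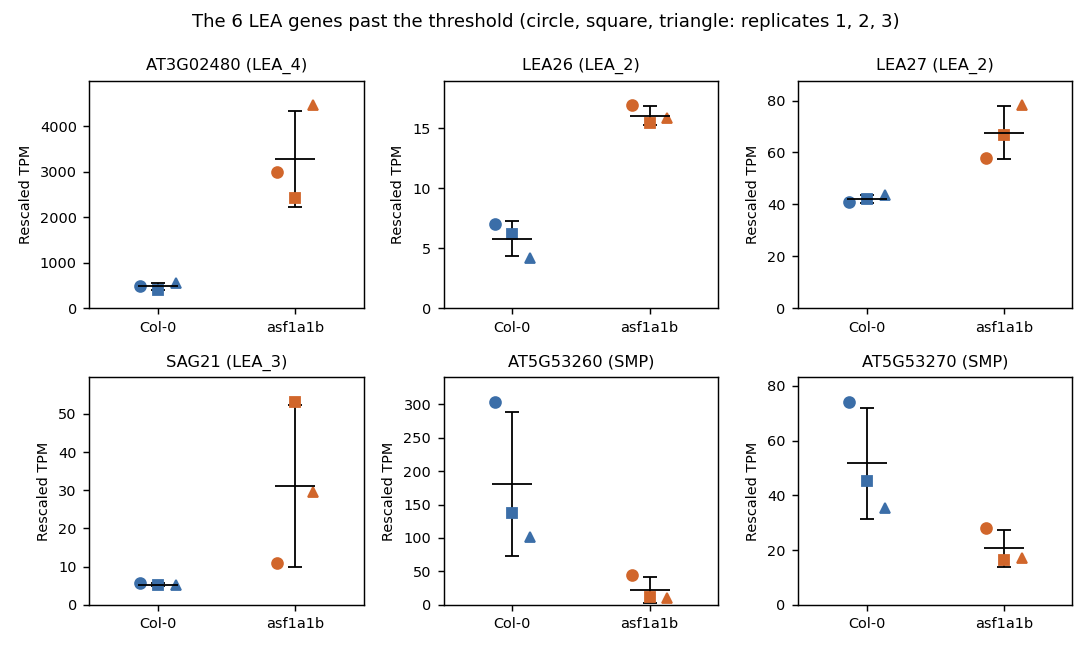
Rescaled TPM of the 6 LEA genes past the threshold, with each library as a symbol, the mean as a bar and the SD as whiskers (n = 3). The groups do not overlap in any panel, and the mutant libraries of SAG21 spread from 10.9 to 53.1.

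The other SMP genes did not pass. ECP31 (AT3G22500), named for a protein of carrot embryogenic cells, measured 4656, 4340 and 3914 (Col-0) and 3562, 3058 and 3375 (asf1a1b) rescaled TPM. Its groups did not overlap, and its log2 fold change was -0.37 (95% interval -0.84 to 0.10, limma adjusted p = 0.198). AT3G22490, on the same strand 781 bases from it, had means of 1271 and 1149, and RAB28 (AT1G03120), an abscisic acid responsive gene, of 149 and 163. For each of these last 2 genes the groups overlapped.

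Most of the abundant LEA genes had lower means over all libraries in the mutant without passing the threshold. Of the 20 members that averaged 1000 or more across the libraries, 18 had a lower mean log2 level in asf1a1b (90.0%, against 57 of 110 genes of that level, 51.8%). The 110 include these 20 members. Among the 20, AT3G02480 alone was called, against 25.5% of the 110. It reached this level only through its mutant libraries (means of 487 in Col-0 and 3286 in asf1a1b). Of the 19 members with a Col-0 mean of at least 1000, 18 were lower and none was called. That set is picked on Col-0 values alone, which favours genes lower in asf1a1b. The share over all genes of that Col-0 level was not computed. Leaving out Col-0 replicate 1 left 13 of the 20 lower, with EM1, AT2G42560, AT3G53040, AT3G22490 and AT2G23110 turned, against 52 of the 110 genes. Leaving out asf1a1b replicate 2 also left 13, against 48. Their median SE was 0.295, against 0.155 over all genes tested and 0.253 over the 110. EM6 (AT2G40170), an LEA_5 protein needed for the normal course of seed drying, was the highest member and ranked 6 among all genes in Col-0. It measured 20972, 23984 and 18819 (Col-0) and 17985, 10136 and 11915 (asf1a1b) rescaled TPM. The groups did not overlap, though Col-0 replicate 3 and asf1a1b replicate 1 were close. Its log2 fold change of -0.71 ± 0.35 did not pass (SE, limma adjusted p = 0.157), and did pass without the mean-variance trend or by limma-voom fitted to the recovered reads (adjusted p = 0.0473 and 0.0443, in fits where 30.2% and 30.9% of all genes passed). EM1 (AT3G51810), the other LEA_5 gene, had 6025, 4091 and 3205 in Col-0 and 5321, 3483 and 4010 in asf1a1b, a range inside that of Col-0 (log2 fold change -0.03, 95% interval -0.74 to 0.68).

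M17 and M10, known as late embryo transcripts and the members of the AtM family, were also abundant. M17 (AT2G41260) measured 12349, 19364 and 18555 (Col-0) and 3183, 9060.0 and 9931 (asf1a1b) rescaled TPM. It was lowest in replicate 1 of both genotypes, and its groups did not overlap. The log2 fold change was -1.32 ± 0.48 (SE, limma adjusted p = 0.0735, and 0.0194 with the replicate number as a block). M10 (AT2G41280) had means of 5171 and 4307 and overlapping groups (log2 fold change -0.32, 95% interval -0.99 to 0.35).

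Among the 3 LEA_1 genes, whose products protect plants in drought, LEA4-1 (AT1G32560) measured 4031, 3342 and 2926 (Col-0) and 3204, 1440.1 and 1837 (asf1a1b) rescaled TPM. Replicate 1 of the mutant lay within the range of Col-0 and the other two mutant libraries lay below it. The log2 fold change was -0.74 ± 0.32 (SE, limma adjusted p = 0.114, 0.0403 with the replicate block and 0.0148 without asf1a1b replicate 1). LEA4-5 (AT5G06760) had means of 6559 and 4501, with overlap. LEA4-2 (AT2G35300) was nearly level, at 5796, 5216 and 5336 in Col-0 and 5960.4, 4300 and 5611 in asf1a1b (log2 fold change -0.06, 95% interval -0.60 to 0.49).

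The LEA_4 family, proteins that form amphipathic helices when they dry, was the largest, with 18 genes of which 12 were tested. AT3G15670, its highest member, measured 14848, 12153 and 12444 (Col-0) and 11645, 5362 and 8374 (asf1a1b) rescaled TPM. The groups did not overlap, by a small margin at asf1a1b replicate 1 (log2 fold change -0.70 ± 0.35, SE, limma adjusted p = 0.163). Lower means without a call were also found for AT3G17520 (5501 and 3647), AT1G72100 (2059 and 1491), AT4G36600 (1509 and 1101) and AT2G18340 (287 and 199). These 4 genes passed, as lower, when asf1a1b replicate 1 was left out (limma adjusted p = 0.0402, 0.0226, 0.0424 and 0.0125). AT3G53040 had means of 2880 and 2369, AT4G21020 of 2525 and 2036, AT5G44310 of 2125 and 1777 and AT2G42560 of 1886 and 1710 in Col-0 and asf1a1b, all with overlapping groups. LEA7 (AT1G52690) and ECP63 (AT2G36640) had higher means in the mutant, at 3910 and 5427 and at 872 and 1026, also with overlap (log2 fold changes 0.50 and 0.30, limma adjusted p = 0.187 and 0.551).

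In the PvLEA18 family replicate 1 stood apart. AT2G23110 measured 2499.8, 751 and 630.1 (Col-0) and 1580.3, 663 and 743 (asf1a1b) rescaled TPM, and replicate 1 was the highest library in both genotypes. Its neighbour AT2G23120 had 454, 218 and 209 in Col-0 and 477, 281 and 357 in asf1a1b, with the same high replicate 1. Their log2 fold changes were -0.20 ± 0.55 and 0.40 ± 0.33 (SE, limma adjusted p = 0.81 and 0.378). Without Col-0 replicate 1 the log2 fold change of AT2G23110 turned to 0.42 (limma adjusted p = 0.412), and AT2G23120 passed, as higher (limma adjusted p = 0.0382). AT2G23120, LEA7, AT2G18340 and AT3G22490 each overlap a gene on the opposite strand, by 144, 297, 98 and 25 bases, and with the strand setting unknown reads there cannot be told apart.

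**Figure D3:**
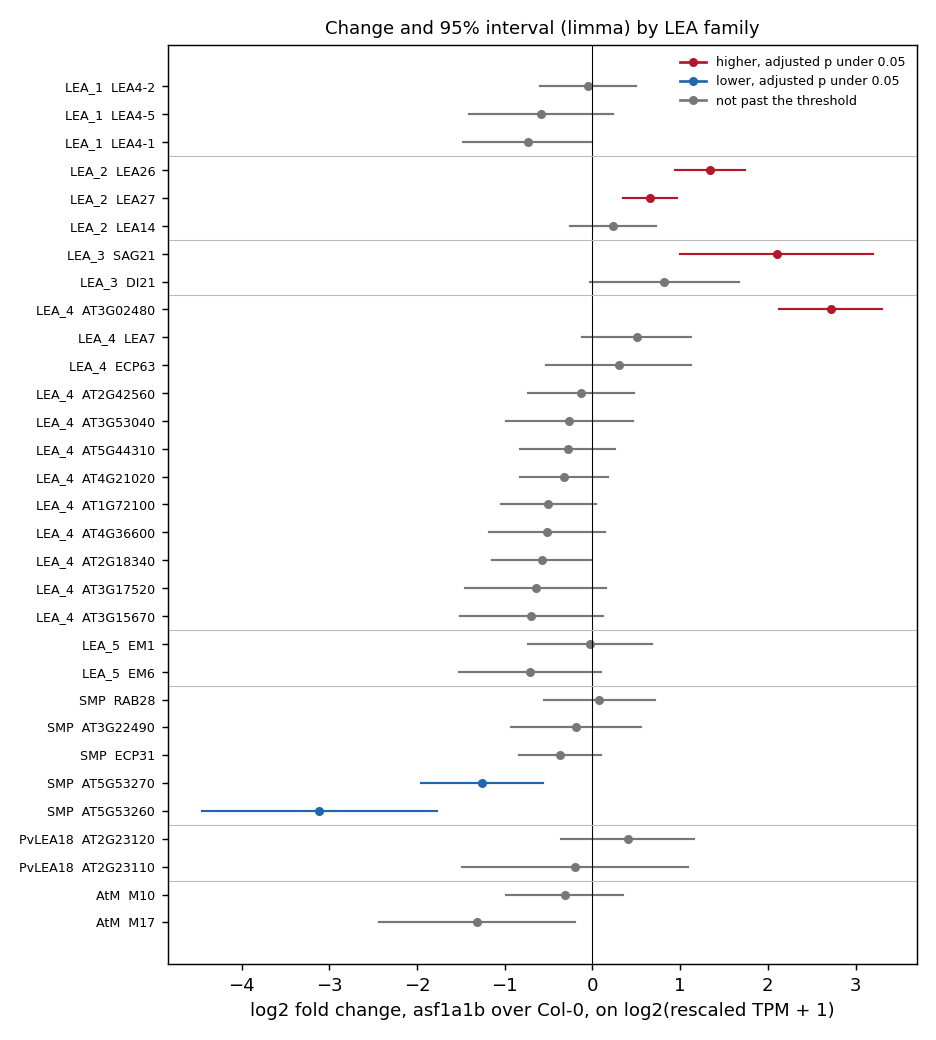
Log2 fold change of asf1a1b over Col-0 for the 31 tested LEA genes, grouped by family, with 95% intervals from limma on log2(rescaled TPM + 1). The 4 increases lie in LEA_2, LEA_3 and LEA_4 and the 2 decreases in SMP, while most intervals of the other 25 genes include 0.

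Replicate 1 was the highest library for most LEA genes. Of the 31 tested members, 21 were highest in replicate 1 within Col-0 and 25 within asf1a1b, and 19 (61.3%) were highest there in both genotypes. Over all genes tested, 27.9% were highest in replicate 1 in both. For the 25 genes not called, the median deviation from the gene's own mean was 0.34, 0.14 and 0.00 (log2) in the wild-type replicates and 0.29, -0.45 and -0.18 in those of the mutant. The median of asf1a1b replicate 1 thus lay within the range of the Col-0 medians, and those of the other two mutant libraries below it. The 25 were picked as not called on these same values, which favours genes whose groups overlap. Such medians were not taken over all tested genes. Among these 25, M17 and DI21 had their lowest mutant value in replicate 1. With the replicate number as a block, 8 of the 31 members passed, 4 higher and 4 lower, a share below the 39.7% of all genes. Without replicate 1 of both genotypes, a setting chosen after the values were seen, 17 of the 31 passed, 7 higher and 10 lower. This share was near the 51.8% of all genes, so the count is no result about the members. The 6 genes were among the 17. The count was 7 without Col-0 replicate 1, 4 without Col-0 replicate 2 and 6 without Col-0 replicate 3. For the mutant it was 5 when replicate 2 and 4 when replicate 3 was left out. Over all genes the calls in these fits, in the same order, were 4991, 2122, 3279, 2346 and 1767, against 4494 in the main fit.

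**Figure D4:**
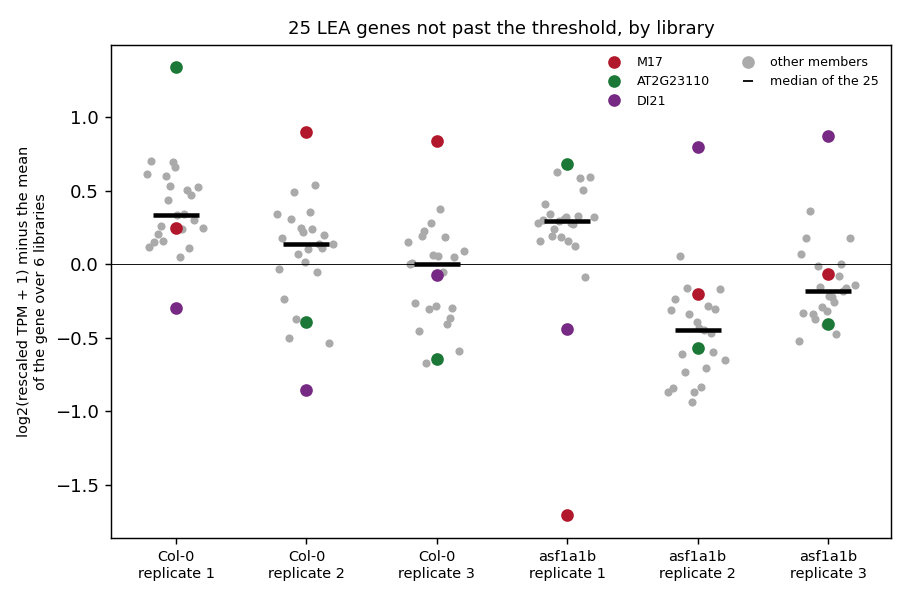
Deviation of log2(rescaled TPM + 1) from the gene's own mean over the 6 libraries, for the 25 LEA genes not past the threshold, with the median as a black bar. The medians run from 0.34 in Col-0 replicate 1 to -0.45 in asf1a1b replicate 2, and asf1a1b replicate 1 has a median of 0.29.

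Ratios within a library depend little on the scaling between libraries, and 6 pairs of neighbours or family partners were compared. The log2 ratio of AT5G53260 to AT5G53270 was 2.02, 1.58 and 1.496 in Col-0 and 0.62, -0.47 and -0.62 in asf1a1b. AT5G53260 was thus the higher of the tandem genes in all Col-0 libraries and in asf1a1b replicate 1, and the lower in the other two mutant libraries. The log2 ratio of EM6 to EM1 was 1.80, 2.55 and 2.55 in Col-0 and 1.76, 1.54 and 1.57 in asf1a1b, with Col-0 replicate 1 just above the mutant. For both pairs the groups did not overlap, with differences of -1.85 and -0.68 and an exact permutation p of 0.1 (two-sided), which is the smallest that 3 against 3 can give (0.2 after adjustment over the 6 pairs). For M17 over M10, AT2G23110 over AT2G23120 and AT3G22490 over ECP31 the groups overlapped (differences -1.002, -0.60 and 0.18, exact permutation p = 0.3, 0.2 and 0.6). The M17 difference was -0.24 without asf1a1b replicate 1, that of AT2G23110 was -0.34 without Col-0 replicate 1, and that of AT3G22490 turned to -0.066 without asf1a1b replicate 1. These tests ignore the replicate number. Taken between libraries of the same number, the differences for replicates 1, 2 and 3 were -0.73, -0.55 and -0.53 for AT2G23110 over AT2G23120, and -2.03, -0.31 and -0.67 for M17 over M10, each of 1 sign. For AT3G22490 over ECP31 the signs differed. With 3 pairs an exact two-sided sign-flip permutation test cannot go below 0.25, the value reached by the other 5 pairs. The COR15B and COR15A ratio rests on too few reads to be read.

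**Figure D5:**
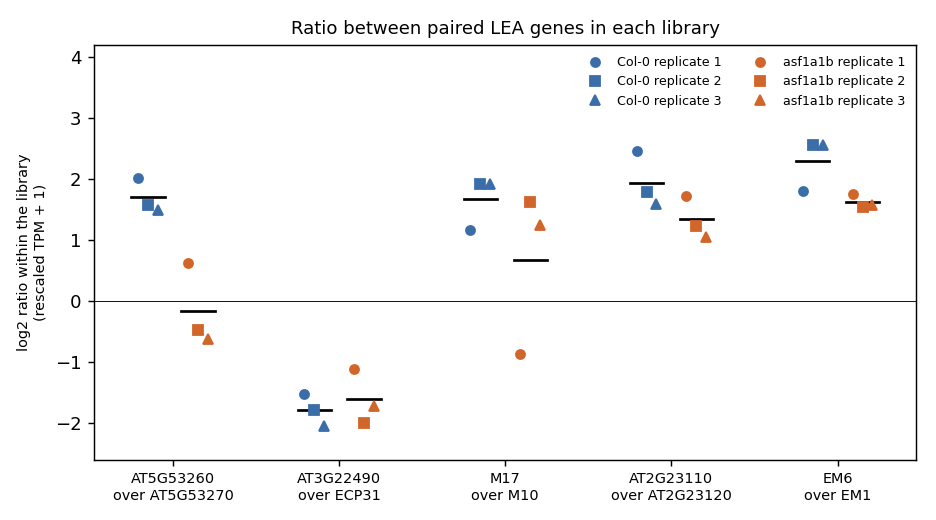
Log2 ratio between paired LEA genes within each library, from rescaled TPM + 1, with the group mean as a bar. AT5G53260 over AT5G53270 lies between 1.496 and 2.02 in Col-0 and between -0.62 and 0.62 in asf1a1b, and the ratio of AT3G22490 to ECP31 overlaps between the groups.

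The 10 genes below the level tested were read rarely. The 8 with any read had a higher mean level in the mutant, as did 73.2% of the 11111 genes of that level with any read. UNE15 (AT4G13560), named for an unfertilised embryo sac phenotype, had 58, 40 and 50 recovered reads (Col-0) and 146, 210 and 204 (asf1a1b). Its groups did not overlap (0.349 ± 0.0605 and 1.25 ± 0.101 rescaled TPM, SD, n = 3), and with no filter on low values it passed (limma adjusted p = 0.00499, where 19.6% of all genes did). It overlaps other annotated genes on both strands. COR15A (AT2G42540), a chloroplast protein that protects membranes in the cold, was seen in 0, 0 and 1 reads (Col-0) and 2, 157 and 24 (asf1a1b), and its tandem copy COR15B (AT2G42530) 0, 0 and 1 against 0, 8 and 5. Most of these mutant reads came from 1 library, asf1a1b replicate 2. AT2G03850 had 0 reads in the 3 Col-0 libraries and 3, 21 and 7 in asf1a1b, a mean 9.03 times the floor of 3 reads over the Col-0 group. LEA3 (AT1G02820) had 40 reads over Col-0 and 87 over asf1a1b, and AT5G27980 33 and 60. AT4G13230 had 0, 1 and 0 against 0, 25 and 2, AT2G03740 had 2 reads in asf1a1b replicate 2 alone, and AT3G53770 and AT2G33690 had 0 reads in all 6 libraries, which allows up to 0.0471 and 0.0600 rescaled TPM as a mean over Col-0.

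The authors' deposited table lists 32 of the members. In the authors' deposited table AT3G02480, SAG21 and UNE15 are marked up and AT5G53260 down, and 8.76% of all listed genes carry a mark. By adjusted p alone under 0.05, the authors' deposited table has 13 of the 32, 6 higher and 7 lower, against 38.5% of all genes. Beside the 6 genes called here and UNE15, these are DI21 as higher and EM6, M17, ECP31, LEA4-1 and AT3G15670 as lower. In the authors' deposited table EM6 and M17 have log2 fold changes of -0.69 and -1.20, with adjusted p-values of 0.00822 and 0.00577.

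The promoters of the members were searched for elements known to act in seeds and in drought, in the 250 bases before the annotated gene start, on both strands. ACGTG, the core of the abscisic acid response element, was in 29 of 41 (70.7%), against 22.9% of 27443 protein-coding promoters and 23.9% of those of tested genes. CACGTG, the G-box, was in 20 (48.8% against 6.49%), and since it reads the same on both strands each match also counts as ACGTG on each strand. CCGAC, the core of the dehydration response element, was in 16 (39.0% against 12.0%), and CATGCA, the RY core of embryo genes, in 6 (14.6% against 8.43%). By change, ACGTG was in 2 of the 4 genes that rose, in both that fell, in 22 of the 25 not called and in 3 of the 10 not tested. A match describes letters in the window and is not a shown binding site.

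The promoters of the gene with the largest rise, of the SMP gene with the larger decrease and of the highest member are shown for comparison. They are written 5′ to 3′ on the strand of the gene from the TAIR10.1 sequence and end at the base before the gene start, and capitals mark matches to the 4 motifs on either strand. The windows are chr3:511970-512219 (plus), chr5:21605675-21605924 (minus) and chr2:16780369-16780618 (minus).
AT3G02480: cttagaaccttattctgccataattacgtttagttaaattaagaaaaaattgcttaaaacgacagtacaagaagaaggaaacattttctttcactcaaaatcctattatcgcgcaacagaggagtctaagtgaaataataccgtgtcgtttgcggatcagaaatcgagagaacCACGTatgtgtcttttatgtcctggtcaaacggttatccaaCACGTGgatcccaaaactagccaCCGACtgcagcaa
AT5G53260: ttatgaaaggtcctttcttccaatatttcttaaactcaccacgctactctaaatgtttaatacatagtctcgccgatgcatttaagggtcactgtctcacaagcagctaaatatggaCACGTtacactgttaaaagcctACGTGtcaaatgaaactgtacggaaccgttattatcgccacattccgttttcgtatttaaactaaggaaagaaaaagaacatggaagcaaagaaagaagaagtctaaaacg
EM6: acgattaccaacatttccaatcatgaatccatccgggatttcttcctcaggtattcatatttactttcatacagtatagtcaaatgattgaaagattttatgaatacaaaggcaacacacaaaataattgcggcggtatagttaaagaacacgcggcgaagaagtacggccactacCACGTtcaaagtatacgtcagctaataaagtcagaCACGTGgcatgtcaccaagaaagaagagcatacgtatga
The window of AT3G02480 holds a G-box that begins 36 bases before the gene start, a further ACGTG core at 77 and a CCGAC at 13. That of EM6 holds a G-box at 39 and an ACGTG core at 74. AT5G53260 has ACGTG cores at 133 and 111, while its neighbour AT5G53270 has a single G-box, at 113, and a CCGAC at 158. The annotated exons of AT5G53260 hold coding bases only (531 bases for 176 amino acids), so its distances count from the start codon. They may therefore not compare with those of the other genes. LEA26 has no ACGTG in its window, and a CCGAC at 15. The windows of AT5G53270 and LEA26 reach into an adjoining gene.

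Of 26 listed factors known to act on LEA genes 20 were tested, 5 rose, 2 fell and 13 did not pass, with a median log2 fold change of 0.26 over the 20. This share is near that of all genes tested (30.6%, with 16.1% higher and 14.5% lower), so the count is no result about these factors. HSFA9, a heat shock factor of seeds, fell by 1.53 ± 0.25 on the log2 scale and ABI4, an abscisic acid response factor, fell by 0.98 ± 0.15 (SE, limma adjusted p = 0.00528 and 0.00457). EEL and DPBF2, basic leucine zipper relatives of ABI5, rose by 0.77 ± 0.13 and 1.08 ± 0.13, and L1L, a relative of LEC1, by 0.93 ± 0.15 (SE, limma adjusted p = 0.00647, 0.00206 and 0.00486). ABF2 (0.62) and DREB2A (0.75), factors of the drought response, also passed (limma adjusted p = 0.0244 and 0.0412), and each lost its call in fits that left out 1 library, ABF2 when replicate 2 of either genotype or mutant replicate 3 was dropped (highest limma adjusted p 0.0974) and DREB2A when replicate 2 or 3 of either genotype was (0.142). ABI3 had means of 60.2 and 76.2 and ABI5 of 541 and 375 rescaled TPM in Col-0 and asf1a1b, without a call (limma adjusted p = 0.0524 and 0.108). ABI3 passed, as higher, with the replicate block (0.0427), with no filter (0.0475) and without Col-0 replicate 1 (0.0466), and ABI5, as lower, without asf1a1b replicate 1 (limma adjusted p = 0.00755). Without replicate 1 of both genotypes both passed (0.0418 and 0.00215). Of the 10 dehydrin genes, the LEA family not counted among the 41, 9 were tested, ERD14 rose (log2 fold change 2.47 ± 0.45, SE, limma adjusted p = 0.00729) and 8 did not pass.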

How the data were processed

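The authors deposited a table of 32833 genes in 6 libraries whose name calls the values TPM. Library totals differ (915126 to 1049698), so this deposited signal is TPM that had been rescaled across libraries, by a step the sources used here do not give. A second deposited table gives the authors' log2 fold changes, p-values and adjusted p-values for 15257 genes. The submitters' processing notes name TAIR10, HISAT2 2.2.1 and fastp 0.23.4. For the counter, annotation, strand setting and test, the sources used here give nothing.

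For genes with a mean of at least 1 (14663), limma 3.58.1 (R 4.3.3) was run on log2(value + 1) (eBayes with trend, a model of genotype alone, two-sided, Benjamini-Hochberg adjustment, threshold 0.05). This scale understates changes of low genes. The code was tested on simulated data. Reads were recovered by multiplying values by merged exon lengths of TAIR10.1 and dividing by 1 step per library. Of the values below 200 reads that could be checked, 99.3% to 99.4% lay within 0.1 of a whole number. Floors of 3 reads cover counting error only. The rest used scipy 1.17.1, pandas 2.3.3, matplotlib 3.10.9 and numpy 2.4.6 under Python 3.11.15. Coordinates and promoter sequence are from RefSeq TAIR10.1, and protein sequences were not used here.

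The members and lists were chosen with earlier results of these data known. By the rule for named genes all 41 members are accounted for, with values for those with a mean of at least 1, and dehydrins and regulators are given by counts with the members past the threshold. ABI3 and ABI5 did not pass and are named outside that rule, chosen after their values were seen. Between libraries of the same number, deviations from the group mean correlated at 0.427, 0.144 and 0.327 for replicates 1, 2 and 3. All exceed 0.1, and the replicate number was used as a block in an alternative fit only. The main fit and its p-values leave it out. No label names a shared batch, and these correlations do not settle which libraries pair. Of the unlike-numbered pairs, Col-0 replicate 3 with asf1a1b replicate 2 correlated at 0.381, above the like-numbered pairs 2 and 3, and Col-0 replicate 2 with asf1a1b replicate 3 at 0.0999, while the other 4 were negative. Alternatives were other filters, pseudocounts and scalings, no trend, limma-voom on recovered reads, the replicate block and leaving out libraries.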

Additional observations from a re-analysis of the deposited data

How the results depend on the processing

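The 6 calls among LEA genes were also made, as the same genes, with a mean of at least 5, with no filter, with a pseudocount of 0.1, under the 3 other scalings, without the trend, with limma-voom and with the replicate block. UNE15 was added with no filter, and EM6 without the trend or with limma-voom. The median log2 fold change of LEA genes, -0.26, was -0.06 with no filter, where 39 were tested. The block added LEA4-1 and M17 (4 lower in place of 2) and changed no other call among the members. With 1 library left out the count ran from 4 to 12 (3 to 5 higher, 1 to 7 lower), and without replicate 1 of both genotypes it was 17 (7 higher, 10 lower). Over all genes, 4494 calls (2362 higher, 2132 lower) became 2544 (1222 and 1322) with a mean of at least 5, 1767 to 4999 (991 to 2738 and 776 to 2476) with 1 library left out, and 7588 (3937 and 3651) without replicate 1 of both genotypes. The cause was not tested. The summed LEA level in asf1a1b over Col-0, 0.745, stayed between 0.668 and 0.823. The difference in the log2 ratio of AT3G22490 to ECP31, 0.18, was -0.066 without asf1a1b replicate 1 and between 0.053 and 0.38 with another library left out. DREB2A, a regulator, lost its call under 2 other scalings, with no filter and with limma-voom (limma adjusted p = 0.0525, 0.0536, 0.0721 and 0.0536). The other scalings moved the median of all genes from 0.01 to between -0.05 and 0.00 (log2). With 3 libraries a group, the median SE was 0.298 for LEA genes and 0.155 for all genes tested, which limits the changes that could be called.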
